A study of Homo sapiens with 25 samples.

Results

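The regions described here are stretches of accessible DNA that ATAC-seq listed in every library of untreated HEC-1A cells and in no library of THC-treated cells. Peaks of the 9 deposited ATAC lists on chromosomes 1 to 22 and X were merged into 239554 regions, and 871 of them, 0.364% of all, had a peak in 0 of 3 lists at 24 h, 0 of 3 at 72 h and 3 of 3 untreated lists. They were 1.94% of the 44934 regions listed in 3 of 3 untreated libraries. The listing of peaks chose them, so their loss and their peak strength are a description and carry no test. HEC-1A is an epithelial cell line from a human endometrial adenocarcinoma, labelled wild type, and THC is tetrahydrocannabinol, the main psychoactive cannabinoid of cannabis. ATAC-seq and RNA-seq each had 3 libraries after 24 h of 20 µM THC, 3 after 72 h of 20 µM THC and 3 of untreated cells, and H3K4me3 CUT&RUN had 3 libraries of cells given 20 µM THC and 3 of untreated cells. The labels give the untreated libraries no time and the H3K4me3 libraries no duration, so time in culture and exposure to THC cannot be told apart. One further sample, an IgG control, was not analysed here.

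ATAC-seq maps DNA that is not wrapped in nucleosomes, because a transposase can insert adapters only where the DNA is exposed. Such sites are mostly promoters, where transcription starts, and enhancers, which act on promoters from a distance and open or close as cells change state. Promoters rich in CpG dinucleotides are often open in many cell types, and H3K4me3, a trimethylated histone H3 lysine, marks promoters that are active or poised.

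Of the lost regions, 44 overlapped the promoter window of an annotated gene, and 7 of these windows are printed because the results below return to them. Each window runs from 250 bases before to 50 bases after a RefSeq start site on GRCh38.p14, 5′ to 3′ on the strand of the gene, and the capitals mark the bases shared with the lost region. DOK1 (chr2:74554470-74554769, + strand) and PLLP (chr16:57284623-57284922, - strand) carried regions that were also lost when all lists were made equally long. SAMD9 (chr7:93117930-93118229, - strand) and TFDP2 (chr3:142028577-142028876, - strand) carried 2 of the stronger peaks over an expressed promoter. CTXN1 (chr19:7926086-7926385, - strand) and HIRIP3 (chr16:29995568-29995867, - strand) carried lost regions at genes whose RNA was lower with THC. CCNA1 (chr13:36431705-36432004, + strand) shows a CpG-rich promoter without H3K4me3 that lay wholly inside a lost region.
DOK1: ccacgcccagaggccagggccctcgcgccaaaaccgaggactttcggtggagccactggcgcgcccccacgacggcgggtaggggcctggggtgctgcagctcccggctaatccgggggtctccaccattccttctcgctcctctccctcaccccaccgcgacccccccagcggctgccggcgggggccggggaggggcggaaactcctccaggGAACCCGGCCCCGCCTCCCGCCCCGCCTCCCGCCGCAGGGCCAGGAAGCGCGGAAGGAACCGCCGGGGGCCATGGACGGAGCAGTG
PLLP: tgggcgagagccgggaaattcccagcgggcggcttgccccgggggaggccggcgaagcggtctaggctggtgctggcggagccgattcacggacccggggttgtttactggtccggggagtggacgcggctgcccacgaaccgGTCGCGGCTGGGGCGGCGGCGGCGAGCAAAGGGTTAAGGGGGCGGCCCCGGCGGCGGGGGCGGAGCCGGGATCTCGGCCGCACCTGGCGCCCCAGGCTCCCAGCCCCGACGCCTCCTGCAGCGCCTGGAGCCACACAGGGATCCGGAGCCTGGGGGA
SAMD9: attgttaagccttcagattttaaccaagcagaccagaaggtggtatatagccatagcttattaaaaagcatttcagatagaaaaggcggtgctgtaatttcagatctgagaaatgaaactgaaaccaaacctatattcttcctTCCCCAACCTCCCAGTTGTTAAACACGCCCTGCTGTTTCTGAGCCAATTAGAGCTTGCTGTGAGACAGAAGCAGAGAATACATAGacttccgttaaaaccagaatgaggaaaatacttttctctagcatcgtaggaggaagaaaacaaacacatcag
TFDP2: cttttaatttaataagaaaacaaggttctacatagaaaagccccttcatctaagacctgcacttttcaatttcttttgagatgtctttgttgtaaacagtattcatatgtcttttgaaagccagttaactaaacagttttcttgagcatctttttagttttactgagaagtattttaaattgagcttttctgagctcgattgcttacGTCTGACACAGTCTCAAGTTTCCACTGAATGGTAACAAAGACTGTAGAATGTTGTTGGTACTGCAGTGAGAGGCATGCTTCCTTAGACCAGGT
CTXN1: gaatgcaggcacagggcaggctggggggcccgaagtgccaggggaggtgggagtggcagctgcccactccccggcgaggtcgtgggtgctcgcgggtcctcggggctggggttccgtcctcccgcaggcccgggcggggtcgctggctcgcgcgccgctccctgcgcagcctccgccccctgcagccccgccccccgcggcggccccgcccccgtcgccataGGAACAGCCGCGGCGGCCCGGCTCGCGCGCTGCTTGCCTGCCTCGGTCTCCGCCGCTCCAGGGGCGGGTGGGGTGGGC
HIRIP3: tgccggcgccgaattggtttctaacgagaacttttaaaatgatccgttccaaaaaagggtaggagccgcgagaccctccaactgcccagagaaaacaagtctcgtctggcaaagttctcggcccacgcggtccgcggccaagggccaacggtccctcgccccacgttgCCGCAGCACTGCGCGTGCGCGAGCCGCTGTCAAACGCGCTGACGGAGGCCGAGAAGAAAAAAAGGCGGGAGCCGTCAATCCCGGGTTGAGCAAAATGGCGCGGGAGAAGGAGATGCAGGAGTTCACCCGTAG
CCNA1: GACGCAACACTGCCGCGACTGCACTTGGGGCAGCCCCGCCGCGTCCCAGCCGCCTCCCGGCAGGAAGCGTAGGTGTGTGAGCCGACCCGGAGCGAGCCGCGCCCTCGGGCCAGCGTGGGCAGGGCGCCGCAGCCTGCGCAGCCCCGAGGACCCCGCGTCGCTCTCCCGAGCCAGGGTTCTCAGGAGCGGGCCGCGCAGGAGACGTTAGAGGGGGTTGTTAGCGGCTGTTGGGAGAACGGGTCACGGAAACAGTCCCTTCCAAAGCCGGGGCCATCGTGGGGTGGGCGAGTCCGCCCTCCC
The windows of SAMD9 and TFDP2 were poor in CpG, with 4 and 2 CpG dinucleotides in 300 bases. DOK1 had 31, PLLP 36, CTXN1 36, HIRIP3 32 and CCNA1 35.

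The lists that chose these regions differed in length before any comparison of cells. The 24 h lists held 62064, 57356 and 78290 peaks, the 72 h lists 51017, 38495 and 80773, and the untreated lists 150884, 65042 and 99912. Untreated replicate 1 stood apart as the longest list and 72 h replicate 2 as the shortest. Sequencing depth of the ATAC libraries is unknown, so the part of list length in the loss was not tested beyond the settings given here. Every list began at a -log10 q, the peak caller's multiple-testing-corrected significance, of about 1.3. The reverse pattern, a peak in 6 of 6 THC lists and 0 of 3 untreated lists, was seen at 14 regions, 0.00584% of all.

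**Figure D1:**
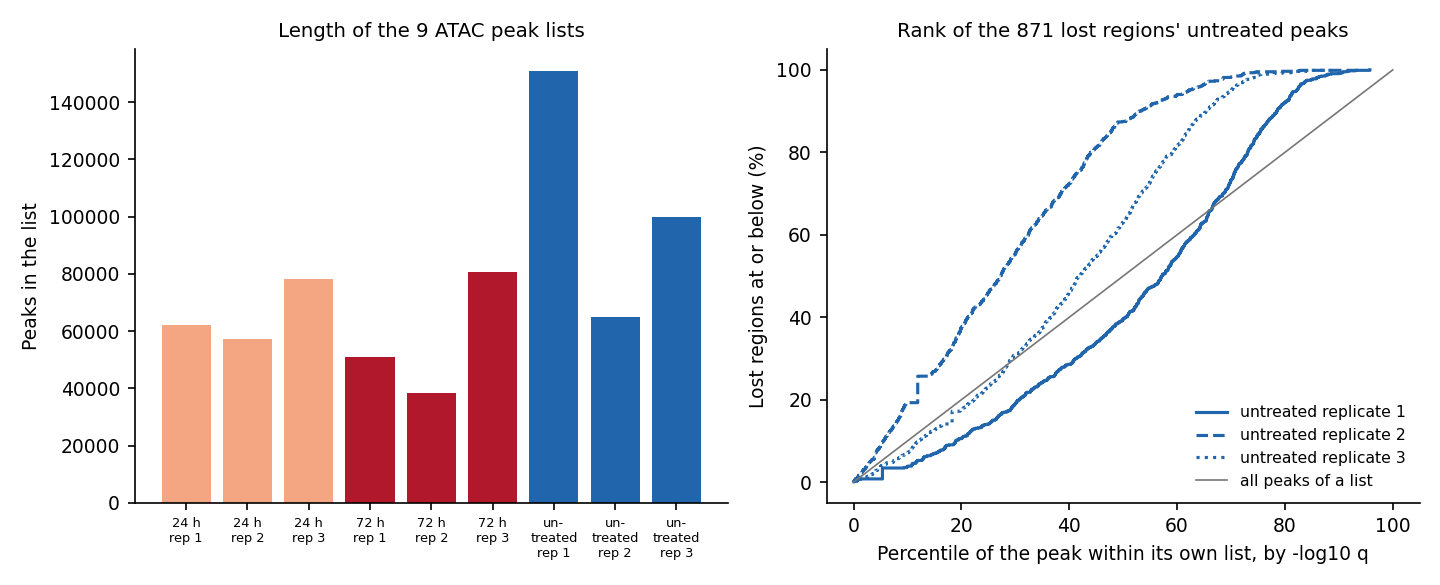
Left, number of peaks in each of the 9 ATAC lists. Right, cumulative share of the 871 lost regions (y axis, %) against the percentile of their peak within its own untreated list by -log10 q (x axis), with the grey line showing all peaks of a list. The medians were 57.1, 27.3 and 42.0 in untreated replicates 1, 2 and 3, and no curve hugs the strongest peaks.

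The lost regions were weaker and narrower than the other regions listed in 3 of 3 untreated libraries, but about as wide as all regions. Their median -log10 q was 2.43, 2.25 and 2.97 in untreated replicates 1, 2 and 3. Regions listed in all 9 libraries had 11.4, 8.27 and 15.4 in the same lists, and the other regions of 3 of 3 untreated libraries had 4.55, 3.59 and 6.30. The median fold enrichment of the lost peaks, as the authors' caller gave it, was 3.81, 3.85 and 4.09. Within their own lists the peaks ranked at a median percentile of 57.1, 27.3 and 42.0. Their median width was 183 bases, with quartiles of 123.5 and 348.5 and a range of 70 to 1276. Regions listed in all 9 libraries had a median width of 748 bases, the other regions of untreated cells 357, and all regions 179. In 856 of 871 (98.3%) a single peak in each untreated list made up the region.

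Strength and width ran in opposite directions among the members. A -log10 q of at least 3 in all 3 untreated lists was reached by 105 members (12.1%), whose median width was 121 bases. The 280 with a weakest value between 2 and 3 had a median of 142 bases, and the 486 below 2 had 265 bases. A value of at least 5 in all 3 lists was reached by 8 members (0.918%).

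In strength the regions just inside the rule stood close to those just outside it. Of the regions in 3 of 3 untreated lists, 871 were in no THC list, 1673 in 1, 2703 in 2, 3902 in 3, 5703 in 4, 8667 in 5 and 21415 in all 6. The counts climbed at every step, with the lost regions at the low end. The median of the weakest untreated -log10 q was 1.93 for the lost regions and 2.10 for the 1673 with a single THC peak. That single THC peak had a median -log10 q of 2.60, and it lay most often in 24 h replicate 3, at 656 regions, and 72 h replicate 3, at 467, which were the longest THC lists. Of the regions in 3 of 3 untreated lists, 1657 were in 0 of 3 lists at 24 h and 3038 in 0 of 3 lists at 72 h, whatever the other time showed.

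The number of lost regions changed with how peaks were admitted. With a -log10 q of at least 2 asked in all 9 lists 571 regions were lost and 14 gained, with at least 3 it was 397 and 8, and with at least 5 it was 261 and 6. Of the 871 regions, 385, 105 and 8 were among those lost at these thresholds. With every list cut to the 38495 strongest peaks, the length of the shortest, 172 regions were lost and 98 gained. Only 36 of the 871 (4.13%) were among these, which were 20.9% of the 172, and the other 136 of the 172 had a peak in at least 1 full THC list. Lost and gained regions thus numbered 871 and 14 with full lists and 172 and 98 with lists of equal length. The 2 rules are not alike, since a gained region needs a peak in 6 lists and a lost region in 3. The counts therefore cannot be read as an excess of loss over gain.

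**Figure D2:**
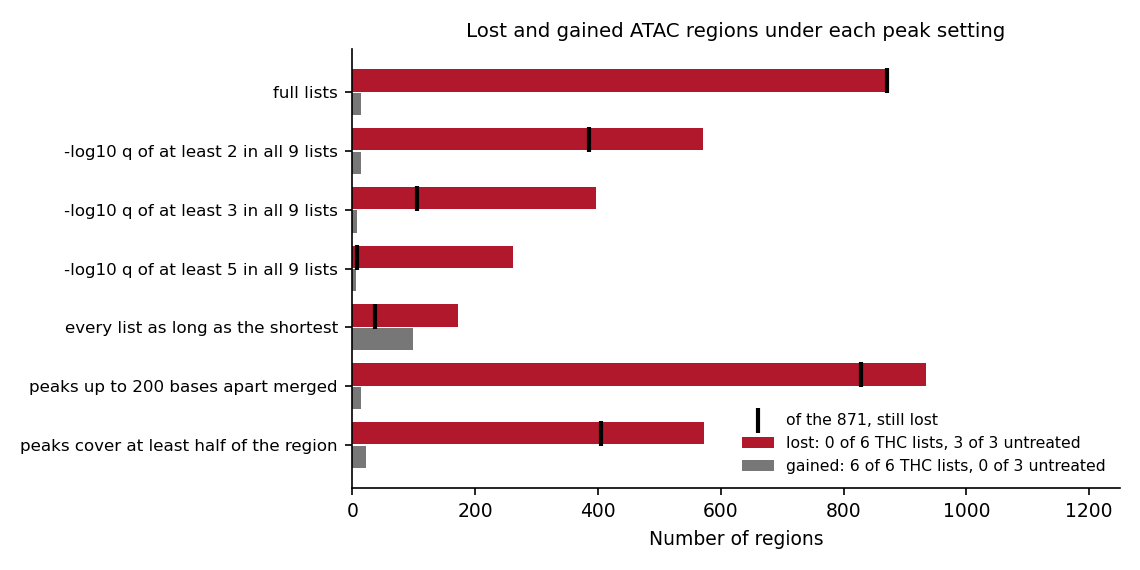
Number of regions (x axis) lost with THC (red: 0 of 6 THC lists, 3 of 3 untreated) and gained (grey: 6 of 6 THC lists, 0 of 3 untreated) under 7 peak settings (rows), with a black tick for how many of the 871 were still lost. With equal-length lists the 2 counts were 172 and 98, and the tick lies at 36.

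Leaving out a library asks less of a region, so the count could only grow. Without one THC list it lay between 908, without 72 h replicate 2, and 1527, without 24 h replicate 3. Without an untreated list it was 1602 for replicate 1, 2282 for replicate 3 and 6825 for replicate 2, the shortest of the 3. The membership rule was then applied to 8 lists at a time, and the chosen regions were looked up in the list left out. Left-out 24 h lists held 25.6%, 13.7% and 43.0% of the chosen regions in replicates 1, 2 and 3, left-out 72 h lists 8.03%, 4.07% and 34.9%, and left-out untreated lists 54.4%, 12.8% and 38.2%. The ranges of THC and untreated lists overlapped.

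For a base rate, the chosen regions were set beside the other regions with a peak in at least 1 of the 8 lists used, a set chosen after the data were seen. Of these other regions, left-out 24 h lists held 21.8%, 21.0% and 28.4%, left-out 72 h lists 19.0%, 13.7% and 28.4%, and left-out untreated lists 45.9%, 23.3% and 34.5%. The chosen regions were listed less often than these in 3 of 6 left-out THC lists and in 1 of 3 left-out untreated lists. The mean difference was -0.52 percentage points in THC lists and 0.53 in untreated lists, where the single lists ranged over both signs.

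A stricter set, also chosen after the data were seen, was the other regions with a peak in every untreated list used, each of which had a THC peak as well. Left-out 24 h lists held 86.0%, 81.8% and 94.2% of these, left-out 72 h lists 72.9%, 56.8% and 92.3%, and left-out untreated lists 96.0%, 75.6% and 95.0%. In untreated cells too, then, a library left out of the choice listed far fewer of the chosen regions than of regions with the same untreated listing and a THC peak, by 53.7 percentage points on average.

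With lists of equal length, also added after the data were seen, left-out 24 h lists held 41.5%, 20.4% and 48.5% of the chosen regions, left-out 72 h lists 14%, 3.37% and 34.6%, and left-out untreated lists 42.8%, 35.5% and 40.7%. The chosen regions were listed less often than the other regions of the 8 lists in 6 of 6 THC lists, by 21.0 percentage points on average, and in 3 of 3 untreated lists, by 8.99. The THC lists differed widely among themselves, with 3.37% in 72 h replicate 2 and 48.5% in 24 h replicate 3.

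**Figure D3:**
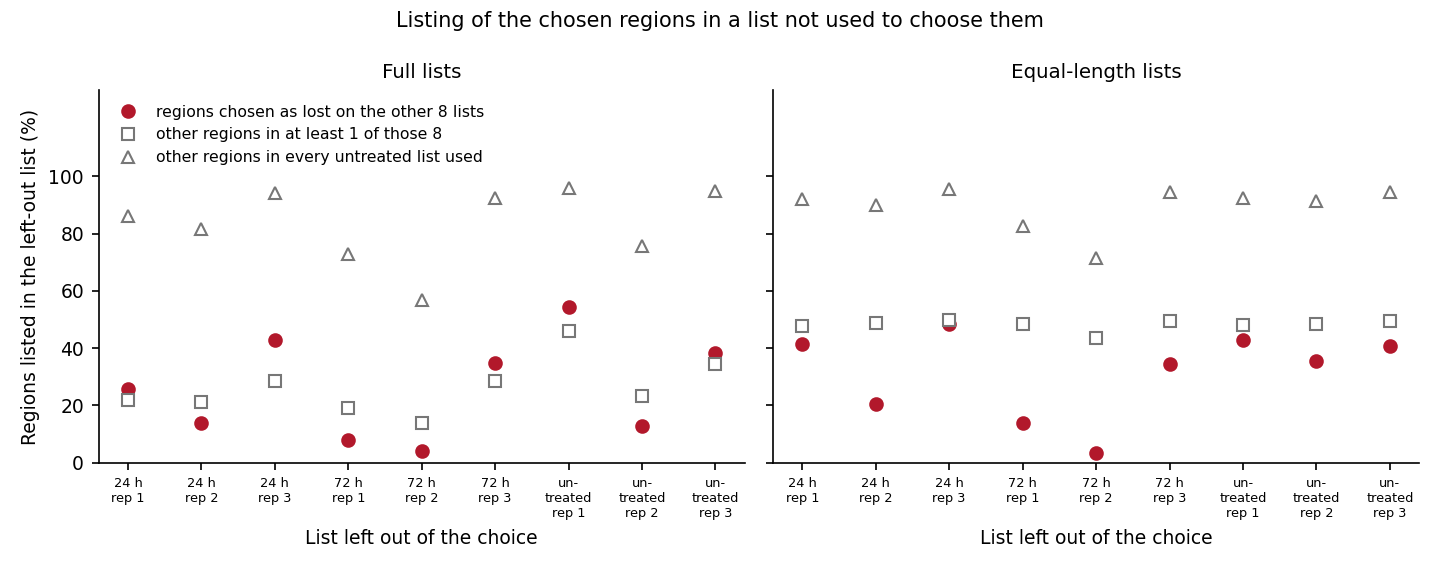
Share of regions (y axis, %) listed in the list left out (x axis), for regions chosen as lost on the other 8 lists (red points), other regions with a peak in at least 1 of those 8 (grey squares) and other regions with a peak in every untreated list used (grey triangles), with full lists (left) and lists cut to 38495 peaks (right). With full lists the red points lie on both sides of the squares, and they lie below the triangles in all 9 lists on both sides.

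Of the 10 strongest members, 9 lay in gene bodies and 8 were narrower than the median member. By the lowest of the 3 within-list percentiles, the first was chr7:205240-205361 in FAM20C, a kinase of secreted proteins, with -log10 q of 16.8, 8.93 and 12.98 in untreated replicates 1, 2 and 3. The next was chr5:109699733-109699807 in MAN2A1, a Golgi mannosidase of N-glycan processing, with 12.9, 6.59 and 16.5. The third was chr12:55724753-55724834 in CD63, a tetraspanin of late endosomes and exosomes, with 4.85, 6.41 and 8.05, and it lay under an H3K4me3 peak in all 6 lists. The others of the first 10 lay in CSGALNACT1 on chromosome 8, in PAM (chr5:102780582-102780682), in GET1-SH3BGR and LCA5L (chr21:39441655-39441736), in the long non-coding genes LINC01965, LINC01019 and LOC101930053, and outside genes at chr20:64120266-64120662.

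RNA of the 6 tested host genes of the 10 strongest members changed at both times, in both directions. Changes are on the scale of log2(TPM + 1), which understates the change of low genes. TPM describe whole cultures, so fewer cells expressing a gene and less of its RNA per cell cannot be told apart. PAM, which amidates peptide hormones, had 22.9, 26.2 and 28.6 TPM at 24 h and 38.5, 38.1 and 32.8 TPM at 72 h, against 60.8, 62.5 and 56.8 TPM in untreated cells. All THC values of PAM lay below all untreated values, a log2 change of -1.18 ± 0.09 (SE) at 24 h (limma adjusted p = 6.66e-07) and -0.71 ± 0.09 at 72 h (limma adjusted p = 3.6e-05). MAN2A1 had 15.9, 17.4 and 16.7 TPM at 24 h and 15.7, 17.4 and 16.2 TPM at 72 h, against 23.2, 27.7 and 24.0 TPM in untreated cells. It fell, with log2 changes of -0.55 at 24 h and -0.57 at 72 h (limma adjusted p = 5.66e-05 and 4.91e-05). CD63 went the other way, with 941 ± 26.0 TPM at 24 h and 979 ± 29.1 TPM at 72 h, against 725 ± 27.2 TPM in untreated cells (SD, n = 3 each, limma adjusted p = 1.71e-05 and 6.92e-06). FAM20C was lower at 24 h, at 0.624 ± 0.0597 TPM, and higher at 72 h, at 3.09 ± 0.509 TPM, against 2.02 ± 0.211 TPM in untreated cells (limma adjusted p = 2.88e-05 and 0.00458). CSGALNACT1, an enzyme of chondroitin sulphate synthesis, likewise had 3.81 ± 0.203 TPM at 24 h and 9.11 ± 0.527 TPM at 72 h, against 5.34 ± 0.277 TPM in untreated cells (limma adjusted p = 0.000511 and 1.28e-05). LCA5L had 0.359 ± 0.0422 TPM at 24 h and 2.14 ± 0.138 TPM at 72 h, against 1.03 ± 0.232 TPM in untreated cells (limma adjusted p = 0.000706 and 0.000354). Over all 13753 genes tested, 76.7% changed at 24 h and 73.1% at 72 h (limma). Lower at both times were 27.8% of them, higher at both 19.7%, and 11.1% changed in opposite directions at the 2 times.

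The longest members were broad and weak. The longest, chr21:20997356-20998631 in the neural adhesion gene NCAM2, was 1276 bases with a -log10 q of 1.60, 1.80 and 3.24. Next came chr4:29047330-29048451 outside genes at 1122 bases, chr5:50607556-50608563 outside genes at 1008 bases, chr10:114043915-114044867 at 953 bases and chr5:157986042-157986942 over 2 pseudogenes at 901 bases. The region on chromosome 10 lay 49 to 1001 bases after the start site of ADRB1, the beta-1 adrenergic receptor, whose RNA was listed at 0 in all 9 libraries. None of these 5 had an H3K4me3 peak in any list.

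The 36 members that were also lost with lists of equal length had a median width of 122 bases (71 to 397). Their median -log10 q was 6.32, 4.43 and 7.01 in untreated replicates 1, 2 and 3. Of these, 23 lay in a gene body, 3 within 1000 bases of a start site, 5 under an H3K4me3 peak in 6 of 6 lists and 23 under none. The start sites were those of DOK1 with its neighbour LOXL3, of PLLP and of the uncharacterised LOC124900823. ADGRL2, a latrophilin adhesion receptor that also carried a second lost region, held one of the 36. Its RNA was 17.8, 20.7 and 18.4 TPM at 24 h and 26.9, 29.4 and 26.4 TPM at 72 h, against 53.4, 60.2 and 54.8 TPM in untreated cells. It fell by 1.52 on the log2 scale at 24 h (limma adjusted p = 2.87e-08). ADGRL2 was chosen after its values were seen.

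Most of the lost regions lay away from promoters. Over the 846 members outside chromosome 8, where no start site was used here, 93 (10.99%) lay within 1000 bases of a RefSeq start site and 30 (3.55%) over one. The corresponding shares within 1000 bases were 41.1% of regions in all 9 lists, 14.2% of the other regions of untreated cells and 8.89% of all regions. A further 497 members (58.7%) lay in a gene body and 256 (30.3%) outside genes. The median distance to the nearest start site was 25246 bases, against 6160 for regions in all 9 lists, 19025 for the other regions of untreated cells and 25897 for all regions. In position the lost regions were thus nearer to the average region than to regions that stayed listed throughout. A start within 10000 bases of the start of the member before was found for 4 of 871. Chromosome 3 held most, with 83, and the lost share of regions listed in 3 of 3 untreated libraries ran from 1.19% on chromosome 22 to 2.86% on chromosome 4.

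Lost regions in gene bodies were spread over 472 protein-coding genes. Of these, 26 held at least 2, and TNIK, a kinase of Wnt signalling, held 3. Others with 2 were EGFR, the epidermal growth factor receptor, SMAD3, a mediator of TGF-beta signalling, and the calcium channel CACNA1D. Of the 26 genes, 8 were protocadherin alpha genes that overlap one another and share the same 2 regions. ARID1A, a subunit of SWI/SNF chromatin remodellers named in the title of the study, had 20.1, 17.6 and 18.2 TPM at 24 h and 32.9, 32.3 and 36.1 TPM at 72 h, against 49.4, 53.1 and 51.0 TPM in untreated cells. Of the 16 regions in 3 of 3 untreated lists within 100000 bases of ARID1A, 0 were lost, where 1.94% of all such regions were. With so few regions the count says little about this gene.

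Genes with a lost region were counted in 18 lists of 291 distinct genes covering lipid synthesis, SWI/SNF, stress, cell cycle, junctions, signalling and cell type markers. Of these, 10 (TM7SF2, ACACA, SCD5, ACSS2, SMARCD3, DPF3, BCL7A, ATF3, EGFR and FGFR2) held a lost region in the body or within 1000 bases of the start site, and over all protein-coding genes it was 479 of 19970 (2.40%). In cholesterol synthesis the count was 1 of 20, TM7SF2, a sterol reductase, with a region 1721 bases from a start site. TM7SF2 had 4.27, 3.56 and 3.37 TPM at 24 h and 6.09, 3.63 and 6.35 TPM at 72 h, against 16.1, 19.4 and 15.8 TPM in untreated cells. No THC value of TM7SF2 reached the untreated range, and it fell, with log2 changes of -1.94 at 24 h and -1.54 at 72 h (limma adjusted p = 2.19e-06 and 1.39e-05). All 20 genes of that list were lower at both times (limma), the other 19 with no lost region, where 27.8% of all genes tested were lower at both.

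In fatty acid synthesis the count was 3 of 17, with ACSS2, which makes acetyl-CoA from acetate, ACACA, which makes malonyl-CoA, and the desaturase SCD5, whose RNA was below the filter. ACSS2 had 23.9, 22.4 and 20.8 TPM at 24 h and 30.4, 31.2 and 31.4 TPM at 72 h, against 51.1, 53.0 and 49.7 TPM in untreated cells. The log2 change of ACSS2 was -1.16 ± 0.06 (SE) at 24 h and -0.71 ± 0.06 at 72 h (limma adjusted p = 3.49e-08 and 1.33e-06). ACACA fell, with log2 changes of -0.37 at 24 h and -0.73 at 72 h (limma adjusted p = 0.000527 and 4.39e-06). Of the 15 tested genes of that list, 12 were lower and 1 higher at 24 h, and 11 lower and 1 higher at 72 h (limma). Over all genes tested 51.7% were lower and 25.0% higher at 24 h, and 33.0% lower and 40.1% higher at 72 h. In the SWI/SNF list the count was 3 of 24, with SMARCD3, BCL7A and DPF3. Of the 23 tested genes of that list, 20 were lower and 3 higher at 24 h, and 14 lower and 4 higher at 72 h (limma). SMARCD3 changed by -0.20 at 24 h and 0.39 at 72 h, BCL7A by 0.39 and 0.26 (limma adjusted p between 6.4e-05 and 0.0222), and DPF3 was below the filter. With each library centred on its median, the 24 h value of SMARCD3 was 0.013 and no longer passed.

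In the integrated stress response the count was 1 of 18, ATF3, a stress-induced transcription factor, with a lost region 14500 bases from a start site. ATF3 had 59.9, 62.8 and 67.7 TPM at 24 h and 59.5, 60.6 and 50.2 TPM at 72 h, against 1.40, 1.45 and 1.40 TPM in untreated cells. It was the largest RNA change among the listed genes with a lost region, and it was a rise, by 4.74 and 4.58 on the log2 scale (limma adjusted p = 4.82e-11 and 5.26e-11). Of the 16 tested genes of that list, 15 were higher and 1 lower at 24 h, and 15 higher and 0 lower at 72 h (limma). Over all genes tested 25.0% were higher and 51.7% lower at 24 h, and 40.1% higher and 33.0% lower at 72 h. Among growth factor receptors the count was 2 of 20, and both were lower. Of all 20 genes of that list, 16 were lower and 4 higher at 24 h, and 9 lower and 7 higher at 72 h (limma). These stand beside the same shares over all genes tested, and no test was made over the list. EGFR, with 2 lost regions, fell, with log2 changes of -0.76 at 24 h and -0.26 at 72 h (limma adjusted p = 3.17e-07 and 0.000841), and FGFR2 fell, with log2 changes of -1.22 and -0.59 (limma adjusted p = 1.33e-07 and 3.06e-05). The remaining 13 lists held 0 genes with a lost region.

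Epithelial markers were abundant in all RNA libraries, their summed level being 4953 to 5150 TPM at 24 h, 3623 to 3866 TPM at 72 h and 2939 to 3070 TPM in untreated cells. The 6 stromal markers summed to 0.612 to 1.08 TPM, 0.888 to 1.32 TPM and 2.96 to 3.21 TPM in the same groups, and the immune and endothelial markers to at most 0.373 TPM.

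H3K4me3, which the rule did not use, was listed at about as few of the lost regions as of all regions, and the THC and untreated libraries overlapped. The THC lists held 30098, 34573 and 35879 peaks and the untreated lists 33470, 33885 and 33850. A peak covered 10.4%, 12.97% and 14.2% of the 871 regions in the THC libraries and 12.4%, 14.01% and 13.8% in the untreated libraries. The means were 12.6% ± 1.93 with THC and 13.4% ± 0.869 in untreated cells (SD, n = 3 each), a difference of -0.84 percentage points (two-sided exact permutation test, p = 0.7, 0.9 adjusted over 4 sets of regions, smallest possible p = 0.1). Without THC replicate 1, the shortest of the 6 lists, the difference was 0.21. Among the 105 members with a -log10 q of at least 3 it was -1.90, and among the 172 regions lost with equal-length lists -2.13, both chosen after the data were seen (exact permutation p = 0.6 and 0.7).

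The share under H3K4me3 was higher at regions listed throughout, a description with no test. Regions in all 9 ATAC lists were covered at 73.1% with THC and 72.3% in untreated cells, the other regions of untreated cells at 36.9% and 36.6%, and all regions at 13.8% and 13.6%. Of the lost regions, 72 (8.27%) had an H3K4me3 peak in 6 of 6 lists and 80.7% had none. Over all regions these shares were 11.1% and 83.1%. They were 28.3% and 53.2% of the other regions of untreated cells, and 67.2% and 21.8% of regions in all 9 ATAC lists. The share with a peak in 6 of 6 lists was 15.2% of members with a -log10 q of at least 3, 9.64% of those between 2 and 3 and 5.97% of those below 2. A peak in 0 of 3 THC and 3 of 3 untreated lists was found at 2 of 871 members, against 0.0547% of all regions, and the reverse at 1 of 871, against 0.0948%. The 1 listed with THC alone was chr20:64120266-64120662, among the 10 strongest members, with a -log10 q in ATAC of 7.67, 9.01 and 5.82 in untreated cells.

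**Figure D4:**
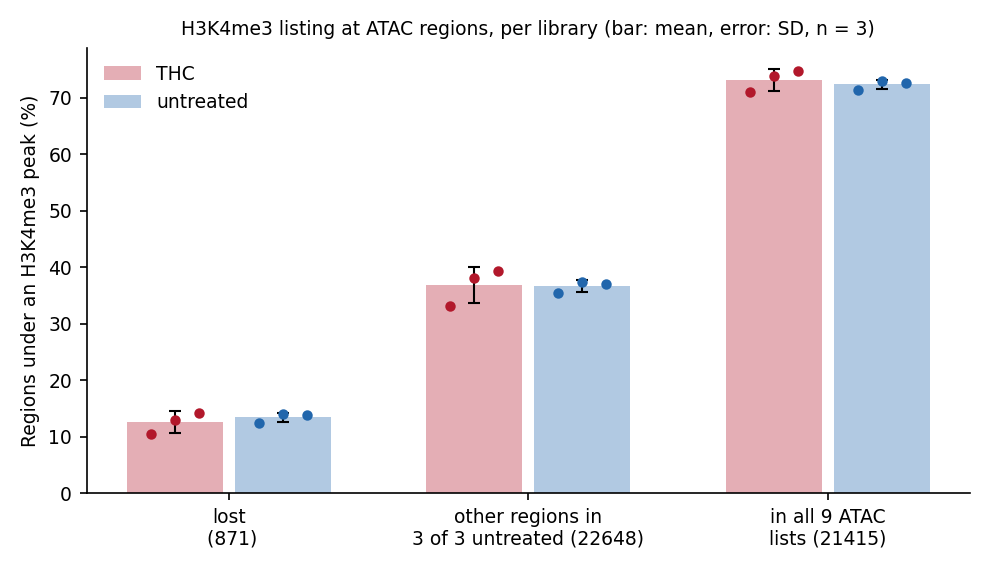
Share of ATAC regions under an H3K4me3 peak (y axis, %) in THC (red) and untreated (blue) libraries, for the lost regions, the other regions in 3 of 3 untreated ATAC lists and the regions in all 9 lists. Points are libraries, bars means and error bars SD (n = 3). The lost regions sit between 10.4% and 14.2% in both groups.

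Most of the lost regions over promoters carried no H3K4me3 peak. Of the 44 that overlapped a promoter window, 27 (61.4%) had H3K4me3 in 0 of 6 lists and 11 (25.0%) in 6 of 6. Among other regions of untreated cells over a promoter window the shares were 16.5% and 73.9% of 2290, and among regions in all 9 lists 2.46% and 96.1% of 8034. No test was made of these shares. Any overlap with a window was counted, and the window of ADRB1 shared only 1 base with its region. The 28 genes at the windows without the mark include ADRB1, the glutamate receptor GRIA2, the neuronal RNA-binding gene ELAVL4, the fibroblast growth factor homologue FGF12, the haematopoietic surface gene CD34 and the germline cyclin CCNA1. Of the 23 in the TPM table, 3 had a mean of at least 1 TPM and the median was 0.0202 TPM. The windows were nonetheless rich in CpG, with a median of 25 CpG dinucleotides and 65.7% GC. CCNA1, whose window is printed above, had 0.955, 1.15 and 1.29 TPM at 24 h and 0.744, 0.954 and 0.866 TPM at 72 h, against 0.2503, 0.251 and 0.153 TPM in untreated cells. These values did not overlap between THC and untreated cells, but CCNA1 was below the filter and was not tested.

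The 12 genes at windows with the mark in all 6 lists include DOK1, PLLP, SAMD9, TFDP2, HIRIP3, TRAF5, RTN4 and RBM38. Of the 11 in the table, 8 had a mean of at least 1 TPM, and the median was 7.63 TPM. Median CpG was 31.5 and GC 65.8%.

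Base composition over all 49 promoter windows touched by a lost region was close to that of other open promoters. Median GC was 67.7%, against 66.0% for windows under regions in all 9 lists, 67.3% under the other regions of untreated cells and 58.7% for all 34961 windows. Median CpG was 26, against 27, 27 and 14. The SP motif GGGCGG, the GC box, was found on either strand in 63.3% of windows, against 73.0%, 68.9% and 45.0%. Part of the CTCF motif, AGGGGGC, was found in 26.5%, against 19.5%, 23.1% and 14.4%. The GC box stands in the capitals of the DOK1, PLLP, CTXN1 and CCNA1 windows, and AGGGGGC in those of PLLP.

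The other motifs searched were in few of the 49 windows, and overlaps between motifs were allowed. Comparison shares run in the order windows under regions in all 9 lists, under the other regions of untreated cells, and all windows. AP-1 (TGANTCA) was in 4.08% of the 49, against 4.51%, 5.69% and 7.68%, and CRE (TGACGTCA) in 2.04%, against 3.23%, 2.93% and 1.85%. TEAD (GGAATG) was in 6.12%, against 10.6%, 11.4% and 14.04%, and GATA factor sites (AGATAA) in 8.16%, against 4.02%, 4.55% and 10.3%. Forkhead (TGTTTAC) was in 6.12%, against 2.09%, 2.59% and 3.42%, and ETS (CCGGAAGT) in 2.04%, against 9.41%, 5.05% and 4.14%. The E-box (CACGTG) was in 8.16%, against 9.79%, 9.70% and 7.27%, and NF-kB (GGGANTTTC) in 2.04%, against 1.20%, 1.25% and 1.28%. The sterol motif (TCACNCCAC) was in 4.08%, against 1.02%, 0.943% and 1.13%. C/EBP-ATF (TGATGCAAT), C/EBP (TTGCGCAA) and HNF1 (GTTAATNAT) were in 0 of the 49 windows, and in 0.237%, 0.152% and 0.792% of all windows. One of 49 windows is 2.04%, so these shares rest on 1 to 4 windows. Some of the 49 windows overlap, and the E-box windows of PGAP6 and LOC100134368 hold the same bases. Matches were counted anywhere in a window, also outside the bases shared with the lost region. A match is a run of letters and not a site of binding.

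RNA at genes with a lost region near the start site was the other measure the rule did not use. Of 107 such genes 82 were in the TPM table, 57 of them below a mean of 1 TPM and 14 at 0 in all 9 libraries, so 25 were tested. At 24 h 22 of 25 changed (limma adjusted p under 0.05), 7 higher and 15 lower. Over all 13753 genes tested 76.7% changed, 25.0% higher and 51.7% lower, against 28.0% higher and 60.0% lower here. At 72 h 22 changed, 6 higher and 16 lower, which is 24.0% and 64.0%, where 73.1% of all genes changed, 40.1% higher and 33.0% lower. The median log2 change was -0.26 at 24 h, against -0.23 over all genes, and -0.41 at 72 h, against 0.06.

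The split depended on scaling at 24 h and on distance at 72 h. With each library centred on its median, which removes a median change over all genes of -0.22 at 24 h and 0.09 at 72 h, 9 were higher and 9 lower at 24 h, where all genes had 36.0% higher and 37.3% lower, and 5 were higher and 16 lower at 72 h, where all genes had 34.8% and 38.9%. Among 63 tested genes with a lost region within 5000 bases of the start site, 22 were higher and 29 lower at 72 h. Among 294 with one in the body or at the start site, 68 were higher and 167 lower at 24 h, and 106 were higher and 123 lower at 72 h. Over all genes tested 25.0% were higher and 51.7% lower at 24 h, and 40.1% higher and 33.0% lower at 72 h. The lean to lower RNA at 72 h was thus seen for the 25 nearest genes and was smaller in the wider windows. In those windows lower genes still outnumbered higher ones at 72 h, the reverse of all genes. No test was made of these counts. Both times share the untreated libraries, and 13 of the 25 genes (52.0%) were lower and 5 (20.0%) higher at both, where 27.8% of all genes were lower and 19.7% higher at both. Between 72 h and 24 h 19 of the 25 differed (limma), where 72.6% of all genes did.

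**Figure D5:**
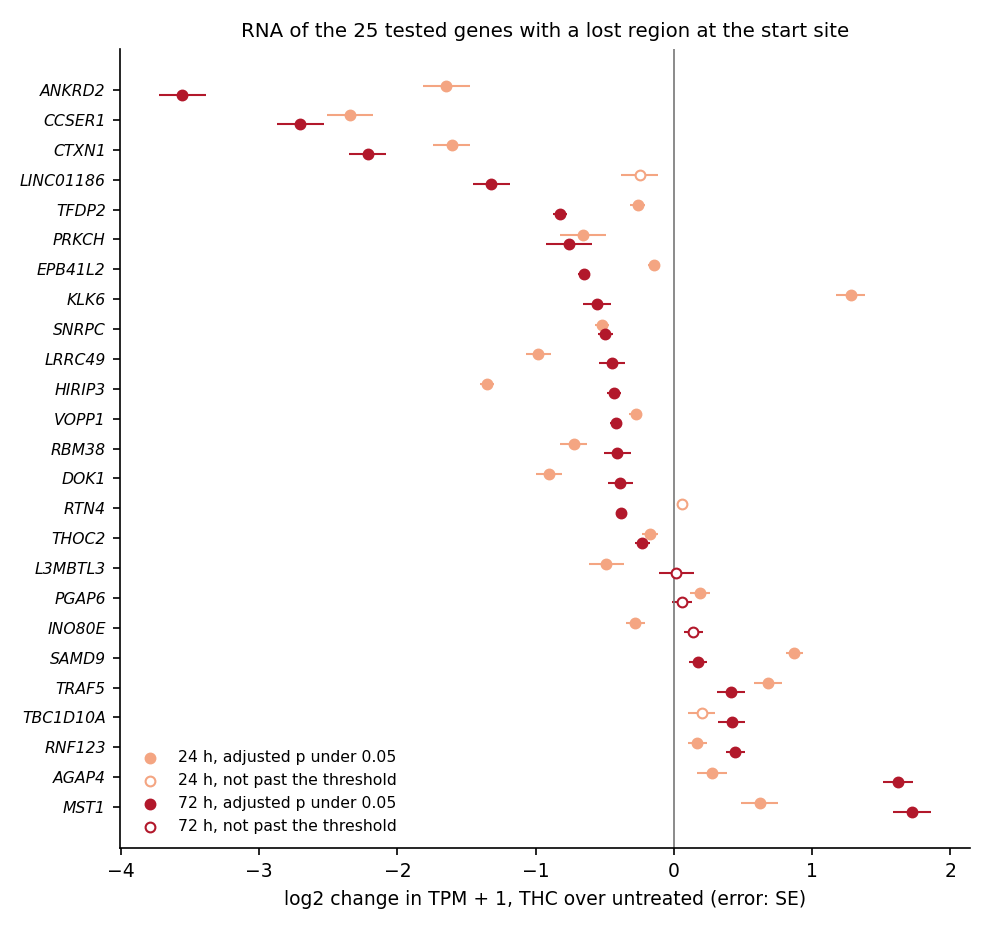
Log2 change in TPM + 1 (x axis, THC over untreated, error bars SE, 3 libraries a group) of the 25 tested genes with a lost region within 1000 bases of the start site (rows), at 24 h (light) and 72 h (dark). Filled points passed a limma adjusted p of 0.05. Most points lie left of 0, KLK6 lies right at 24 h and left at 72 h, and ANKRD2 reaches furthest left at -3.56.

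The largest falls were at ANKRD2, CCSER1 and CTXN1. ANKRD2, an ankyrin repeat protein known from striated muscle, had 7.42, 5.19 and 7.13 TPM at 24 h and 1.01, 0.560 and 1.54 TPM at 72 h, against 22.7, 23.3 and 21.5 TPM in untreated cells. The 3 groups did not overlap, and the log2 change was -1.65 ± 0.17 (SE) at 24 h and -3.56 ± 0.17 at 72 h (limma adjusted p = 8.19e-06 and 3.31e-08). Its lost region lay 609 to 756 bases into the gene, with a weakest -log10 q of 1.62 and H3K4me3 in 6 of 6 lists. CCSER1, a coiled-coil serine-rich protein, had 0.417, 1.07 and 0.624 TPM at 24 h and 0.420, 0.0837 and 0.463 TPM at 72 h, against 6.43, 8.37 and 7.88 TPM in untreated cells. No THC value of CCSER1 came near the untreated ones (log2 change -2.34 at 24 h and -2.70 at 72 h, limma adjusted p = 5.5e-07 and 2.26e-07). CTXN1, the membrane protein cortexin, had 1.85, 1.05 and 1.22 TPM at 24 h and 0.512, 0.564 and 0.551 TPM at 72 h, against 5.64, 7.19 and 5.73 TPM in untreated cells. It fell, with log2 changes of -1.61 at 24 h and -2.21 at 72 h (limma adjusted p = 1.69e-06 and 1.82e-07), and its lost region ran from 28 bases before to 88 bases after the start site with no H3K4me3 peak.

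Other falls were larger at 24 h than at 72 h. HIRIP3, a HIRA-interacting histone chaperone, had 19.6, 20.0 and 19.9 TPM at 24 h and 40.0, 36.4 and 38.7 TPM at 72 h, against 54.1, 52.8 and 50.0 TPM in untreated cells. The 3 groups were apart, with log2 changes of -1.35 ± 0.05 (SE) and -0.44 ± 0.05 (limma adjusted p = 6.66e-09 and 2.47e-05), and the difference between the times was 0.92 (limma adjusted p = 2.29e-07). The same region lies before the start of its divergent neighbour INO80E, whose log2 change was -0.28 at 24 h (limma adjusted p = 0.00364). DOK1, an adaptor that restrains tyrosine kinase signalling, had 3.84, 3.27 and 3.02 TPM at 24 h and 5.38, 5.02 and 5.31 TPM at 72 h, against 6.91, 8.02 and 6.58 TPM in untreated cells. DOK1 is the only tested gene with a start-site region among the 36 that were also lost at equal length. It fell, with log2 changes of -0.90 at 24 h and -0.39 at 72 h (limma adjusted p = 8.77e-06 and 0.0036), and H3K4me3 was listed on the region in 6 of 6 libraries. LRRC49, a tubulin polyglutamylase subunit, fell, with log2 changes of -0.98 and -0.45 (limma adjusted p = 3.93e-06 and 0.00124), and its region is shared with LARP6, which was near 0 TPM.

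PLLP, plasmolipin, a membrane protein of myelin and epithelia, carried the strongest start-site member by its weakest -log10 q, 4.54, and was chosen after its values were seen. It had 0.265, 0.275 and 0.202 TPM at 24 h and 0.609, 0.475 and 0.352 TPM at 72 h, against 1.61, 1.53 and 2.35 TPM in untreated cells. The groups did not overlap, but a mean under 1 TPM over all 9 libraries kept it out of the test.

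A further 3 named genes were lower mainly at 72 h or alike at both times. TFDP2, a partner of E2F factors, had 64.7, 74.0 and 65.6 TPM at 24 h and 45.9, 45.5 and 45.8 TPM at 72 h, against 81.6, 83.2 and 80.4 TPM in untreated cells. Its log2 change was -0.26 ± 0.05 (SE) and -0.82 ± 0.05 (limma adjusted p = 0.00107 and 2.99e-07), and with centred libraries the 24 h value was -0.05 and no longer passed. LINC01186, a long non-coding RNA, had 7.80, 8.33 and 7.28 TPM at 24 h and 2.51, 3.22 and 3.91 TPM at 72 h, against 8.93, 8.32 and 11.3 TPM in untreated cells, and passed only at 72 h (log2 change -1.32, limma adjusted p = 8.68e-06). PRKCH, the eta isoform of protein kinase C, fell, with log2 changes of -0.66 and -0.76 (limma adjusted p = 0.00407 and 0.00186), and its region shares bases with the antisense gene PRKCH-AS1.

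Genes with a lost region at the start site also rose. SAMD9, an interferon-inducible restriction factor, had 10.7, 11.3 and 10.9 TPM at 24 h and 6.29, 6.41 and 6.44 TPM at 72 h, against 5.40, 5.96 and 5.26 TPM in untreated cells. The 24 h libraries were highest and the 72 h ones just above untreated, with log2 changes of 0.87 ± 0.06 (SE) and 0.18 ± 0.06 (limma adjusted p = 6.66e-07 and 0.0294), and with centred libraries the 72 h value was 0.09 and did not pass. Its lost region, the 85 bases in capitals above, had a weakest -log10 q of 4.43 and H3K4me3 in 6 of 6 lists. MST1, the gene of macrophage-stimulating protein, had 6.42, 4.47 and 5.47 TPM at 24 h and 12.99, 10.9 and 14.6 TPM at 72 h, against 2.72, 3.67 and 3.16 TPM in untreated cells. It rose by 0.62 and 1.72 on the log2 scale (limma adjusted p = 0.00189 and 1.31e-06), and its region lies inside the neighbouring ubiquitin ligase gene RNF123, which rose by 0.17 and 0.44 (limma adjusted p = 0.0459 and 0.000198). AGAP4 had 4.67, 5.77 and 6.81 TPM at 24 h and 16.7, 16.4 and 14.7 TPM at 72 h, against 4.77, 4.36 and 4.43 TPM in untreated cells. Only the 72 h values of AGAP4 stood clear of untreated (log2 change 0.28 and 1.62, limma adjusted p = 0.0377 and 4.06e-07), and AGAP4 has near-identical copies among which reads may have been split.

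TRAF5, an adaptor of tumour necrosis factor receptors, had 4.81, 5.40 and 4.79 TPM at 24 h and 3.96, 3.88 and 4.09 TPM at 72 h, against 2.55, 3.36 and 2.36 TPM in untreated cells. It rose by 0.68 and 0.41 on the log2 scale (limma adjusted p = 0.000135 and 0.00405). The smaller rises were PGAP6 at 24 h (0.19, limma adjusted p = 0.0359) and TBC1D10A at 72 h (0.42, limma adjusted p = 0.00297). Calls of AGAP4, PGAP6 and RNF123 at 24 h and of SAMD9 at 72 h were lost when single libraries were left out.

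KLK6, a secreted kallikrein protease, was the 1 gene of the 25 that passed the test in opposite directions at the 2 times, where 11.1% of all genes tested did. It had 3.37, 2.97 and 2.86 TPM at 24 h and 0.159, 0.0558 and 0.205 TPM at 72 h, against 0.564, 0.685 and 0.776 TPM in untreated cells. All 24 h values lay above and all 72 h values below the untreated ones, with log2 changes of 1.28 ± 0.10 (SE) and -0.56 ± 0.10 (limma adjusted p = 1.4e-06 and 0.000697). Its lost region lay 634 to 778 bases into the gene, with a weakest -log10 q of 2.19 and no H3K4me3 peak in any list. The ATAC listing was the same at both times, since the rule asked for 0 of 3 lists at each.

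By H3K4me3, 18 of the 25 tested genes had the mark on the lost region in 6 of 6 lists and 7 in none. Of the 18, 10 were lower and 5 higher at 24 h, and the counts were the same at 72 h. Of the 7, 5 were lower and 2 higher at 24 h, and 6 were lower and 1 higher at 72 h. Over all genes 51.7% were lower and 25.0% higher at 24 h, and 33.0% were lower and 40.1% higher at 72 h.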

How the data were processed

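Files of 24 of 25 samples were used, grouped and numbered by their labels. Some ATAC lists carry another number in their name than their label's replicate; each list was taken with the sample it is recorded under. The labels call the libraries biological replicates without naming separate cultures, so p-values measure the spread between these libraries, which may be technical. The members and all gene lists were chosen with earlier results of these data known.

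Per the submitters' processing notes, reads were placed on GRCh38 and MACS2 2.2.7.1, MACS3, Bowtie2, Picard, SAMtools, Salmon, FastQC and Trim Galore were among the tools, without roles. For the ATAC lists the peak caller, any read shifting, duplicate removal and any peak control were not given in the sources used here. RNA values are TPM as deposited by the authors. TPM keeps no depth, so depth is unknown and no interval from counts can be given. Peaks were called per library. The deposited -log10 q ranked and filtered peaks within a list, and the fold enrichment (a ratio) is the authors' own value. The deposited score, which the caller derives from -log10 q, was left unused.

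Peaks that overlap or adjoin were merged, and any overlap counted as listed. Alternatives were thresholds of 2, 3 and 5 on -log10 q, lists cut to the length of the shortest, merging over 200 bases, a cover of at least 50%, and leaving out each library. RNA was tested with limma 3.58.1 (R 4.3.3, 1 fit of 3 groups, eBayes with trend) on values of log2(TPM + 1). Genes needed a mean TPM of 1 or more, with Benjamini-Hochberg adjustment over all 13753. On simulated data for the 24 h comparison, 194 of 200 genes changed by 1 on the log2 scale were recovered, with 13 false calls among 13235 tested. The 200 genes lay above a set untreated level, and all others were left unchanged. The fit of the real 24 h data called 76.7% of genes, a setting that the simulation did not cover. The lists were handled with pandas 2.3.3 and numpy 2.4.6 under Python 3.11.15, and matplotlib 3.10.9 drew the figures. Gene positions, start sites and promoter windows came from RefSeq tables of GRCh38.p14, in which start sites on chromosome 8 were not used here. The base composition planned for the regions themselves was limited to promoter windows, since no genome was used here.

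Named were the 10 strongest and the 5 longest regions, and at each time up to 6 rises and 6 falls among called genes with a lost region within 1000 bases of the start site. Added were ARID1A and up to 3 members a gene list. Genes outside this rule, such as PLLP, ADGRL2, INO80E, CCNA1, SMAD3, TNIK, CACNA1D and those that illustrate a group, were picked with their values in view.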

Additional observations from a re-analysis of the deposited data

Results flagged for a closer look

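Named genes were flagged where their RNA passed the test in opposite directions at the 2 times, and the contrast tested the difference between the times itself. There were 5 among 34 named genes tested, and 11.1% of all genes did the same. Many named genes were picked by the size of their RNA change, so this count is not a result about the lost regions. KLK6 had a log2 change of 1.28 ± 0.10 (SE) at 24 h and -0.56 ± 0.10 at 72 h, so the 72 h change minus the 24 h change was -1.83 ± 0.10 (limma adjusted p = 2.54e-07). All 3 libraries at 24 h were above and all 3 at 72 h below the 3 untreated libraries.

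The other 4 were lower at 24 h and higher at 72 h, with no overlap of either time with the untreated libraries. The 72 h change minus the 24 h change was 1.33 ± 0.11 for FAM20C, 1.21 ± 0.11 for LCA5L, 1.07 ± 0.07 for CSGALNACT1 and 0.59 ± 0.07 for SMARCD3 (limma adjusted p = 2.51e-06, 4.54e-06, 6.95e-07 and 3.3e-05). With centred libraries the 24 h change of SMARCD3 was 0.013 and did not pass.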

How the results depend on the processing

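The number of lost regions moved with the peak settings. It was 571, 397 and 261 with a -log10 q of at least 2, 3 and 5, 172 with lists of equal length, 572 where peaks had to cover at least 50% of a region, and 934 with peaks up to 200 bases apart merged. It was 908 to 6825 without single libraries. In left-out untreated lists the share of chosen regions minus that of all regions not chosen averaged -6.95 points with full lists and -9.99 with lists of equal length. The second set holds regions with a peak in the left-out list alone, which lowers the difference by construction. Without those it was 0.53 and -8.99, and beside other regions of every untreated list used -53.7 and -53.2. Why these counts moved was not tested beyond list length and strength. The H3K4me3 difference at lost regions stayed between -1.45 and -0.65 under other peak settings and was -1.68 to 0.21 without single libraries. The number of start-site genes called was 8 at 24 h and 8 at 72 h for regions over the start site, 55 and 51 within 5000 bases, and 235 and 229 with the gene body, where the numbers of genes tested were 9, 63 and 294. It was 19 to 20 at 24 h and 21 to 22 at 72 h without single libraries, and 24 and 32 of 59 without a filter. The main fit called 76.7% of all genes tested at 24 h and 73.1% at 72 h. Shares over all genes are not given here for the fits without single libraries, without a filter or with the replicate block. Replicate numbers did not pair the samples, the correlations of same-numbered deviations being -0.12 to 0.25 in RNA and 0.01 to 0.03 in H3K4me3. With the replicate block 20 genes were called at 24 h and 22 at 72 h, and the H3K4me3 difference was -0.84 (exact sign-flip p = 0.5, smallest possible 0.25). Over the 34 tested genes that the text names by its rule or beside one, 1 direction turned, SMARCD3 at 24 h, at 0.013 with centred libraries. AGAP4, INO80E, PGAP6, RNF123, SMARCD3 and TFDP2 at 24 h and SAMD9 at 72 h lost their call under some alternatives. Weak peaks and unknown depth limit what the listing can show.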
